A study of Mus musculus with 2 samples.

Results

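The 9 genes described here are Cd83, Cd80, Cd86, Cd74, H2-Aa, H2-Ab1, H2-Eb1, H2-DMa and Ciita, which carry out or regulate antigen presentation on MHC class II molecules and B7 costimulation. They were taken as every probe set whose annotation names exactly 1 of these symbols, which gave 16 probe sets for 9 of the 11807 genes on the array. They were proposed with earlier results of these arrays in view, so their differences are given as a description. The study compared CD4+ T cells cultured with 25 ng/ml of recombinant murine IL-27 with cells cultured without it. Both cultures started from naive CD4+ T cells of female C57BL/6J mice, taken from lymph nodes and spleen, and spent 60 h on plate-bound antibodies to CD3 and CD28, which stand in for a presenting cell and for B7 on it. RNA of each culture was read on 1 Affymetrix array with 3' probe sets, so there is 1 array per group. With no replicate there is no test, no standard error and no p-value, and an effect of the cytokine cannot be told apart from variation between cultures.

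A class II molecule is an alpha and a beta chain that present peptides to CD4+ T cells. The invariant chain Cd74 holds the new molecule and blocks its groove, and the H2-DM molecule exchanges the remaining fragment of Cd74 for a peptide. Transcription of these genes is switched by the coactivator Ciita, which binds a complex of RFX, CREB and NF-Y proteins on their promoters. Professional presenting cells make them in quantity, whereas mouse T cells, unlike human ones, are known for making little class II of their own and for taking it up from presenting cells as protein. Cd80 and Cd86, the B7 molecules, bind Cd28 as a stimulating and Ctla4 as an inhibiting receptor, and activated T cells can make both B7 molecules. Cd83 is a surface protein of mature dendritic cells and activated lymphocytes that protects class II and Cd86 from ubiquitination by a MARCH ligase.

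Values are intensities on a linear scale after RMA, a normalization that makes the distributions of the arrays nearly alike. Of the 11807 genes, each read by its brightest probe set, 6573 exceeded a background floor of 31.6 on at least 1 array. The floor is the 95th percentile of genes of other tissues, such as liver and testis. A gene was called higher or lower when its intensities were at least 2-fold apart, and a difference is always log2 of the IL-27-treated minus log2 of the untreated intensity. The quartiles of the differences were -0.20 and 0.23 and their median was 0.02.

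Several genes with a known IL-27 response went against the labels. Of 15 genes above the floor whose rise with IL-27 is known, 6 were at least 2-fold lower on the IL-27-labelled array. They were 5 if dim values are set at the floor, without Il10. Irgm1 was the 1 called higher, and by any amount 5 of the 15 lay above 0 and 10 below. Over all genes above the floor, 1.57% were called higher and 2.78% lower. This list and that of genes IL-27 restrains were chosen with earlier results of these data known, so nothing is read from their counts. Socs3, which curbs signalling through STAT3, had an intensity of 186 on the IL-27-labelled array against 1122 on the untreated-labelled array. All 3 genes above the floor that IL-27 is known to restrain, Il2, Gata3 and Csf2, were at least 2-fold higher. Il21, which T cells secrete, was at least 12.2-fold lower and Ly6c1, a surface antigen, and Lag3, an inhibitory receptor, differed by -2.71 and -1.09. Whether the labels of the arrays were exchanged was not tested, and if they were, every difference below would change sign. Directions below follow the labels, and the IL-27-labelled array and the untreated-labelled array are named as such throughout.

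Of the 9 genes, 6 exceeded the floor on at least 1 array. Cd83, Cd80, Cd74 and H2-DMa were higher on the IL-27-labelled array, H2-Ab1 was lower, and H2-Eb1 was within 2-fold. Cd86, H2-Aa and Ciita were below the floor on both arrays. Over all genes above the floor, 1.57% were called higher, 2.78% lower and 4.35% in either direction. Of their 16 probe sets 9 exceeded the floor, 5 of them called higher and 3 lower, where 1.35% and 2.67% of all probe sets above the floor were called higher and lower. Because the genes were chosen from this comparison, nothing is read from their share, and Cd83 exceeded the floor only through the IL-27-labelled array.

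**Figure D1:**
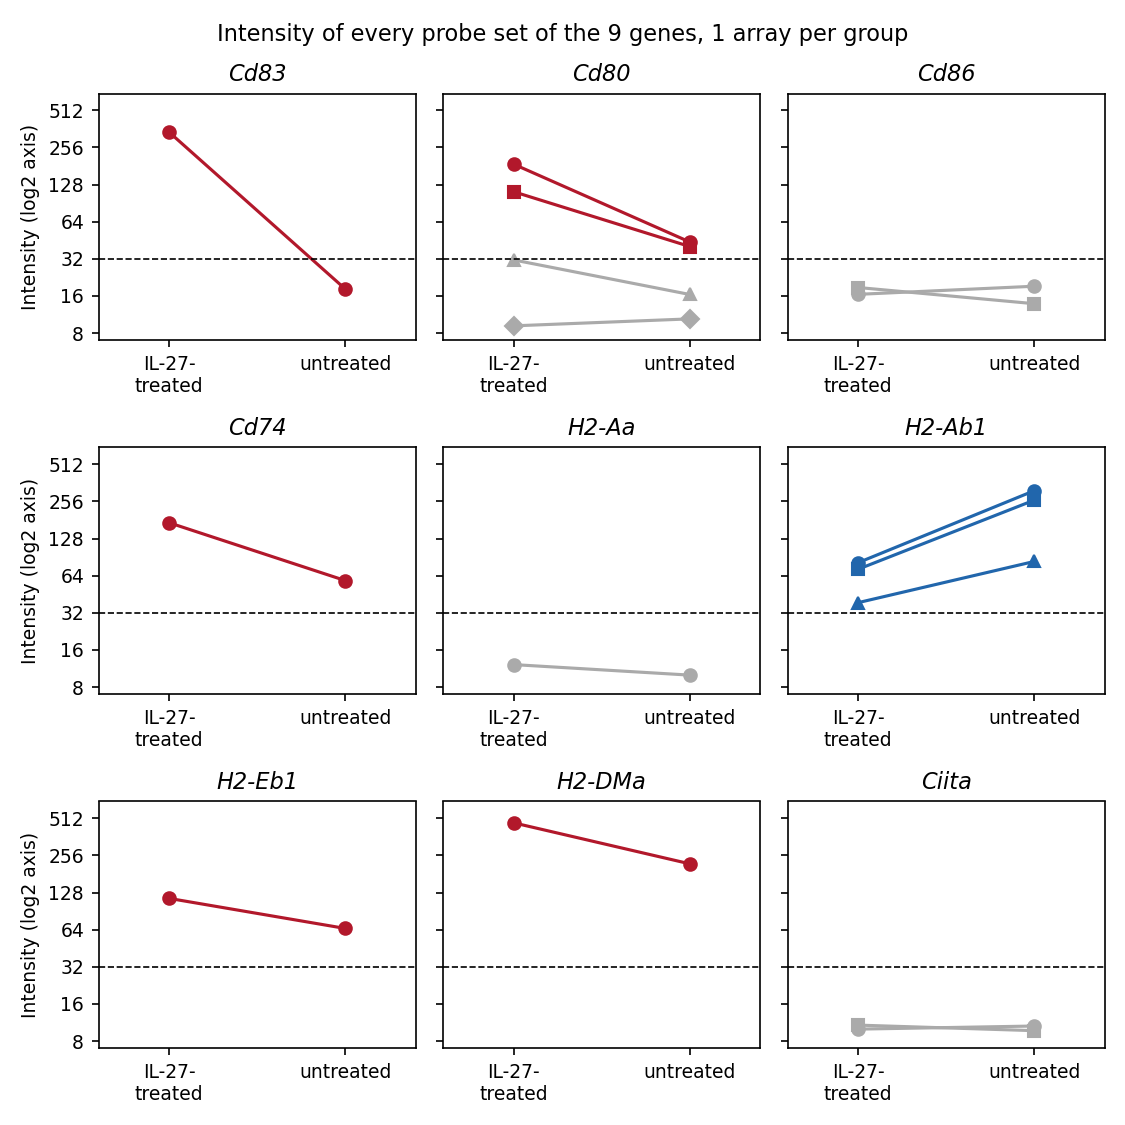
Intensity (log2 axis) of each of the 16 probe sets on the IL-27-labelled array (left) and the untreated-labelled array (right), 1 panel per gene, 1 array per group and no error bars. The dashed line is the background floor of 31.6, red and blue lines are probe sets above it that were higher and lower on the IL-27-labelled array, and grey lines stayed below it on both arrays. Cd83 crosses the floor, the 3 H2-Ab1 lines slope opposite to those of H2-Eb1, Cd74 and H2-DMa, and Cd86, H2-Aa and Ciita lie below it.

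Among the chains of class II itself, H2-Ab1 and H2-Eb1 lay on opposite sides. H2-Ab1, the beta chain of the I-A molecule, had an intensity of 81.6 on the IL-27-labelled array and 313 on the untreated-labelled array by its brightest probe set, a difference of -1.94. A second probe set gave 72.2 and 262 on the same pair of arrays, a difference of -1.86. The third, of a type marked as prone to cross-hybridization, gave 38.7 on the IL-27-labelled array and 83.4 on the untreated-labelled array, a difference of -1.11, or -0.86 and short of 2-fold with a pseudocount of 16. All 3 probe sets of H2-Ab1 differed by at least 2-fold as measured, all downward, and the dimmest of them, near the floor on the IL-27-labelled array, had the smallest difference. The brightest and the dimmest are annotated with the same sequence record, M15848, so they are not independent readings.

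H2-Eb1, the beta chain of the I-E molecule, had an intensity of 115 on the IL-27-labelled array and 65.5 on the untreated-labelled array. Its difference of 0.81, 1.75-fold, falls short of the threshold and rests on 1 probe set. C57BL/6 mice carry a defective H2-Ea, the I-E alpha chain, and are known to lack I-E on the cell surface. The brightest of 3 H2-Ea probe sets had an intensity of 31.1 on the IL-27-labelled array and 30.4 on the untreated-labelled array, just under the floor on both, with a difference of 0.03. H2-Aa, the alpha chain that pairs with H2-Ab1, had an intensity of 12.2 on the IL-27-labelled array and 9.99 on the untreated-labelled array by its only probe set. Both are below the floor, so no fold is given, and a dim probe set does not show that the transcript is absent. The other chain of I-A therefore gave no reading that could be set beside the difference of H2-Ab1.

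The promoters of H2-Eb1 and H2-Aa are shown because these neighbouring class II genes carry the control elements that Ciita acts through, while 1 of them was read above the floor and the other was not. RefSeq promoter windows of GRCm38.p6, 250 bases before to 50 after the gene's start, were at hand for 4 of the 9 genes. Capitals mark the Y box, ATTGG or CCAAT on the other strand, which NF-Y binds, and the letters CTNGCAAC of the X box that RFX binds. The latter were chosen after the pair of sequences had been read.
H2-Eb1, chr17:34305617-34305916, plus strand: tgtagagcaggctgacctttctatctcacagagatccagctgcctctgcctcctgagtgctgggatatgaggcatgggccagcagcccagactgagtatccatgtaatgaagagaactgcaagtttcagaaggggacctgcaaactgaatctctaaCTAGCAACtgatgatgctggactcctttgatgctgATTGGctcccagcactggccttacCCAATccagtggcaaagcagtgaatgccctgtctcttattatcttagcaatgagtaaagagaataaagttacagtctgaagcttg
H2-Aa, chr17:34287774-34288073, minus strand: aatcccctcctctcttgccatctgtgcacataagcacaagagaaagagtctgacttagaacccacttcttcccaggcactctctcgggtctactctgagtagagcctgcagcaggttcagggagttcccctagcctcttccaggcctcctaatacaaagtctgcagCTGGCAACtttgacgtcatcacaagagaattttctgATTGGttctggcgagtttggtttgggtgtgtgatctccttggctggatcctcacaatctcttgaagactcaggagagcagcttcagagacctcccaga
In H2-Eb1 the X box letters begin 94 bases before the gene's start and 27 bases separate them from the first Y box, and a further Y box lies on the opposite strand. In H2-Aa the X box letters begin 84 bases before the start and 28 bases separate them from the Y box. The letters of each motif do not overlap those of the other. Of 32851 promoter windows of this length, searched on both strands, 37.4% hold the Y box letters, 3.42% the X box letters and 1.32% both. The other windows at hand did not hold both motifs. Letters chosen after reading H2-Eb1 and H2-Aa cannot show that another gene lacks an X box. Of the windows of H2-DMa, 1 holds a Y box, which begins 198 bases before its start, and no X box letters, and the rest of the windows, those of Cd80 and of another H2-DMa start, hold neither. These matches describe the windows and do not show that a factor was bound.

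Of the genes that act on class II after its synthesis, Cd74 and H2-DMa were called higher. Cd74, the invariant chain, had an intensity of 172 on the IL-27-labelled array and 58.4 on the untreated-labelled array, a difference of 1.56 by its only probe set. H2-DMa, the alpha chain of the peptide exchanger, had an intensity of 470.0 on the IL-27-labelled array and 219 on the untreated-labelled array, a difference of 1.10. Both genes were above the floor on both arrays, Cd74 less far on the untreated-labelled array, at 58.4 against a floor of 31.6. H2-DMa passed the 2-fold threshold narrowly, at 2.15-fold, and H2-Eb1, at 1.75-fold, fell short of it. The beta chains of H2-DM were not called. H2-DMb2 had an intensity of 53.1 on the IL-27-labelled array and 49.998 on the untreated-labelled array by its brighter probe set, a difference of 0.09. Its dimmer probe set, at 23.0 on the IL-27-labelled array and 14.0 on the untreated-labelled array, was below the floor on both, as was H2-DMb1. The brighter H2-DMb2 probe set is of a type that can also read close relatives, as are the second H2-Ab1 probe set and the only H2-Aa probe set.

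The class II genes lie side by side on mouse chromosome 17, and differences of both signs occurred along that stretch. From H2-Oa to H2-Ea the RefSeq annotation lists 15 genes, of which 12 were analysed here and 9 exceeded the floor. H2-DMa was the 1 gene called higher and H2-Ab1 the 1 called lower, while the other 7 lay between -0.34 and 0.81 by measured values. H2-Oa, the alpha chain of an inhibitor of H2-DM, differed by 0.42 and its beta chain H2-Ob was lower by at least 1.11-fold. H2-Ob had 27.7 units of intensity on the IL-27-labelled array and 35.1 on the untreated-labelled array. The immunoproteasome genes Psmb9 and Psmb8, which serve class I and sit among the class II genes, differed by 0.55 and 0.28.

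**Figure D2:**
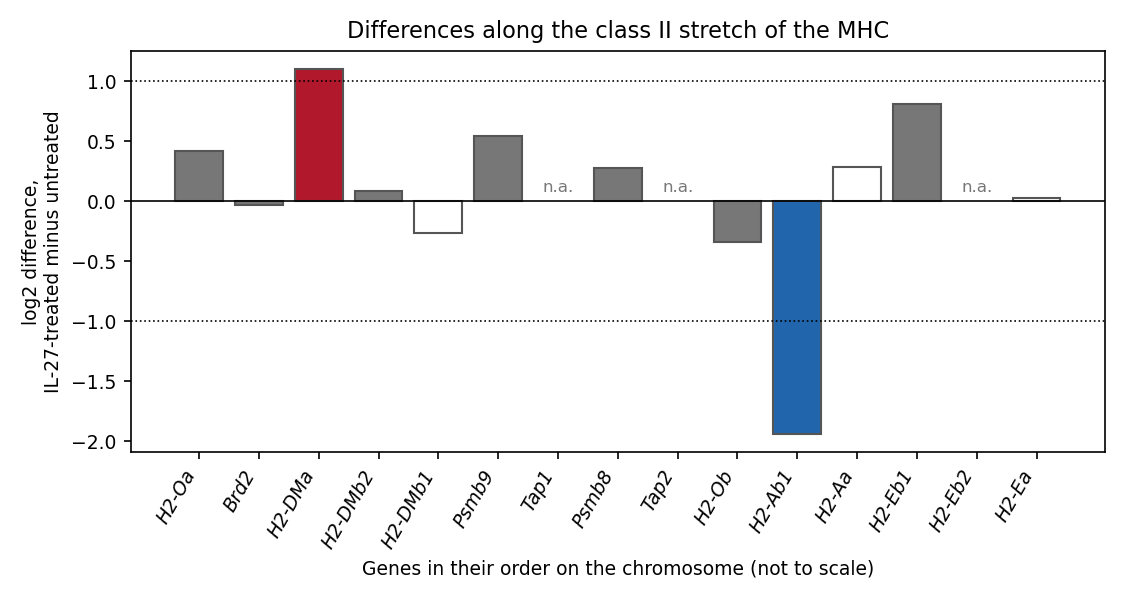
Difference (log2, IL-27-treated minus untreated) of each gene from H2-Oa to H2-Ea in chromosome order, not to scale, 1 array per group and no error bars. Red and blue bars are at least 2-fold higher and lower, grey bars are within 2-fold, open bars are below the floor on both arrays, n.a. marks genes not analysed, and dotted lines mark 2-fold. H2-DMa at 1.10 and H2-Ab1 at -1.94 are the bars past the dotted lines.

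Among the costimulation genes, Cd83 and Cd80 were higher. Cd83 had an intensity of 340.2 on the IL-27-labelled array and 18.2 on the untreated-labelled array, where it was below the floor. Set against the floor, Cd83 was at least 10.8-fold higher, while its measured difference of 4.22 uses a value within background. It rests on 1 probe set. Cd80 had an intensity of 187 on the IL-27-labelled array and 43.8 on the untreated-labelled array by its brightest probe set, a difference of 2.10. A second probe set gave 112 and 40.2 on the same pair of arrays, a difference of 1.48. Both readings of Cd80 were above the floor on both arrays and past 2-fold. Its other probe sets, annotated with the single record AK019867, stayed below the floor. One of them had an intensity of 31.3 on the IL-27-labelled array, just under the floor, and 16.4 on the untreated-labelled array, and the last had 9.14 on the IL-27-labelled array and 10.4 on the untreated-labelled array.

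Cd86, the other B7 molecule, did not exceed the floor by either probe set. Its probe sets had intensities of 16.5 and 18.7 on the IL-27-labelled array and of 19.2 and 13.8 on the untreated-labelled array. They differed in opposite directions, and no fold is given. Whether Cd80 and Cd86 differ in their response was therefore not detectable with these probe sets.

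Ciita, the switch of the class II genes, stayed below the floor by both probe sets. These had intensities of 9.99 and 10.8 on the IL-27-labelled array and of 10.6 and 9.71 on the untreated-labelled array. The called differences of H2-Ab1, Cd74 and H2-DMa thus stand beside a Ciita signal that could not be told from background on either array.

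**Figure D3:**
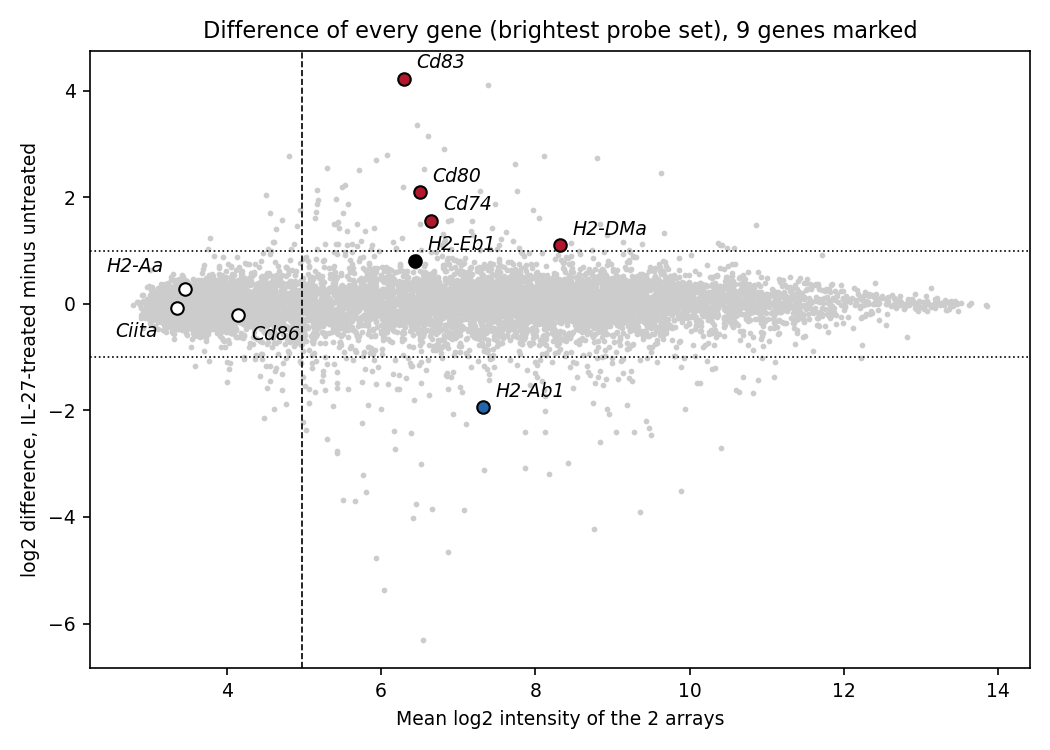
Difference (log2, IL-27-treated minus untreated) against mean log2 intensity for the brightest probe set of each of 11807 genes (grey), with the 9 genes marked. Red and blue points are at least 2-fold higher and lower, the black point is within 2-fold, open points are below the floor on both arrays, the dashed line is the floor and dotted lines mark 2-fold. Cd83 is drawn at its measured 4.22, which is 3.43 with the untreated value set at the floor, and H2-Ab1, at -1.94, is the lowest of the 9.

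Probe sets of 1 gene give the only measure of technical error here. Over 1929 genes with several probe sets above the floor on both arrays, the highest and the lowest difference of a gene lay a median of 0.19 apart, and 95% of genes lay within 0.58. The pair of Cd80 probe sets above the floor lay 0.62 apart and the 3 of H2-Ab1 0.83 apart, wider than most genes, though without a difference in direction. The other 4 genes above the floor have 1 probe set each and no such check. This spread covers probes only and not cultures or hybridizations.

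Other genes of the class II pathway showed smaller differences. Of 11 further genes above the floor, among them lysosomal proteases and chains of H2-DM and H2-O, 0 were called, 5 lay above and 6 below 0, and their median was -0.26 beside 0.02 over all genes. Of all genes above the floor, 4.35% were called in either direction. This list and those below were chosen with earlier results of these data known, so nothing is read from their counts. Ctss, the cathepsin that removes the last part of Cd74, had an intensity of 1190.3 on the IL-27-labelled array and 813 on the untreated-labelled array, a difference of 0.55. The cathepsins Ctsd and Ctsb differed by -0.62 and -0.51 and Lgmn, a protease of antigen processing, was at least 1.33-fold lower, below the floor on the IL-27-labelled array. Ctsb has a second probe set above the floor, at -0.64.

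Genes that control class II transcription differed mostly within 2-fold. Of 20 above the floor, 0 were called higher and 2 lower, where 1.57% and 2.78% of all genes above the floor were. Their median was -0.03. Nfyb, a subunit of NF-Y, had an intensity of 454 on the IL-27-labelled array and 947 on the untreated-labelled array, a difference of -1.06, and its second probe set gave -1.14. Prdm1, which encodes Blimp-1, a repressor of Ciita in plasma cells, had an intensity of 16.5 on the IL-27-labelled array, below the floor, and 189.8 on the untreated-labelled array. It was at least 6.01-fold lower. Interferon gamma is the main inducer of Ciita outside presenting cells, and its gene Ifng differed by 0.75. Its receptor chains lay on opposite sides, Ifngr1 at -0.71 and Ifngr2 at least 1.89-fold higher, with Ifngr2 below the floor on the untreated-labelled array and its dimmer probe set below it on both. The other NF-Y subunits Nfya and Nfyc differed by 0.33 and 0.54, and the RFX subunits Rfx5, Rfxap and Rfxank by -0.32, -0.42 and 0.01.

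Genes of class I presentation lay within 2-fold, as did those of the class II pathway list. Of 12 above the floor, 0 were called, where 4.35% of all genes above the floor were called in either direction. Of the 12, 11 lay above 0 and the median was 0.21. Psmb9, Tapbp, Psme2 and Psmb10, which make or load class I peptides, differed by 0.55, 0.53, 0.49 and 0.45, and the dimmer probe set of Tapbp gave 0.10.

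Receptors of B7 and related ligands were mostly close between the arrays. Of 7 above the floor, 0 were called higher and 1 lower, where 1.57% and 2.78% of all genes above the floor were. Their median was -0.12. Cd28 had an intensity of 1232 on the IL-27-labelled array and 1578 on the untreated-labelled array, a difference of -0.36, and its second probe set gave -0.37. Ctla4, the inhibiting receptor, differed by -0.12. The ligands of the receptor Pdcd1, Pdcd1lg2 and Cd274, differed by 0.61 and 0.06, and Pdcd1 itself by 0.29. Vsir, the B7-like inhibitor VISTA, had an intensity of 242 on the IL-27-labelled array and 1009 on the untreated-labelled array, a difference of -2.06, with its dimmer probe set at -1.56. Cd80 and Vsir, both of the wider B7 family, were thus called in opposite directions.

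In the list of CD40 and TNF-family costimulation, 2 of 9 genes above the floor were called higher and 0 lower. Of all genes above the floor, 1.57% were called higher and 2.78% lower, and the list median was -0.17. The 2 called higher were Tnfsf11, the ligand RANKL, at least 8.97-fold higher, and Cd70, the ligand of Cd27, at least 3.02-fold higher. Both were below the floor on the untreated-labelled array, like Cd83. Tnfrsf9 and its ligand Tnfsf9 differed by -0.77 and -0.80. Cd40 and Cd40lg were below the floor on both arrays.

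**Figure D4:**
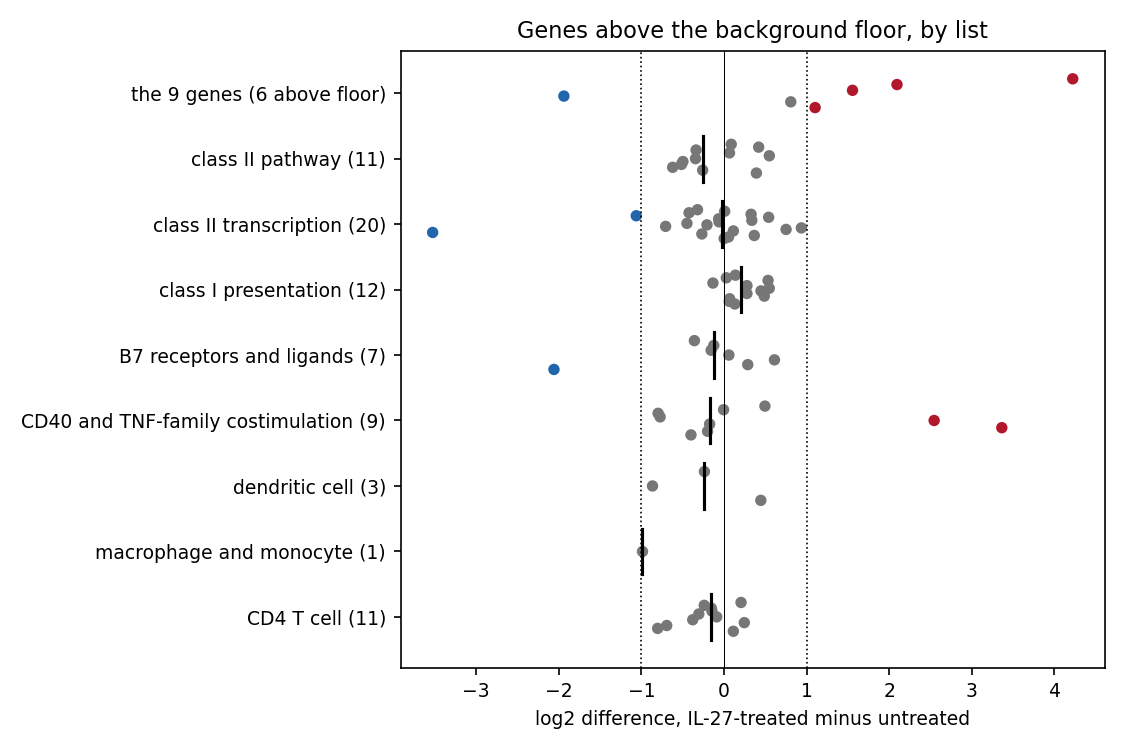
Difference (log2, IL-27-treated minus untreated) of each gene above the floor, by list, with the number of such genes in brackets, 1 array per group. Each point is a gene, vertical black bars are list medians (none is drawn for the 9 genes, which were chosen from this comparison), red and blue points are at least 2-fold higher and lower, and dotted lines mark 2-fold. The 6 genes above the floor reach from -1.94 to 4.22, and the class I list stays within 2-fold, like the class II pathway and CD4 T cell lists.

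Cells that present antigen would bring class II transcripts with them, so their markers are given beside these results. Of 11 B cell markers measured, among them Cd79a, Ms4a1 and Pax5, 0 exceeded the floor, and their summed intensity was 156 on the IL-27-labelled array and 150.2 on the untreated-labelled array. Of 11 dendritic cell markers 3 exceeded it, Batf3 (-0.24), Fscn1 (-0.86) and Cd1d1 (at least 1.25-fold higher, below the floor on the untreated-labelled array), with Itgax, Flt3 and Zbtb46 below it and summed intensities of 435 on the IL-27-labelled array and 522 on the untreated-labelled array. Batf3 is also made by activated T cells. Of 13 macrophage and monocyte markers, Cd68 exceeded it on the untreated-labelled array alone and was at least 1.74-fold lower, while Csf1r, Adgre1 and Lyz2 did not, with summed intensities of 180.2 on the IL-27-labelled array and 209 on the untreated-labelled array. Batf3, Fscn1 and Cd68 were thus lower and Cd1d1 higher on the IL-27-labelled array, while most of these markers were below the floor and show no direction. Fscn1 rests on its brightest probe set, as its others stayed below the floor on both arrays. Cd68 was near the floor, at 27.5 on the IL-27-labelled array and 54.9 on the untreated-labelled array. The part of presenting cells in any of these differences was not tested. In cultures read as bulk RNA, fewer cells of a type and less RNA per cell cannot be told apart. The 11 CD4+ T cell markers were all above the floor and within 2-fold, with a median of -0.15 and 8 of them below 0. Cd6, Cd5, Zap70 and Cd247 differed by -0.80, -0.69, -0.38 and -0.30, and Cd4 by 0.21 and -0.16 by its probe sets above the floor. Dimmer probe sets of Cd247 that were above the floor on both arrays gave -0.24 and 0.05. Of the CD8 chains, Cd8a was below the floor and Cd8b1 differed by 0.57.

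The genes nearest to the members in their difference were found over the 2 arrays, by the gap between log2 differences among genes above the floor. By measured values, Lad1, with a difference of 4.10, and Tnfsf11, with 3.36, were nearest to Cd83. Cd83 and Tnfsf11 were below the floor on the untreated-labelled array, so their gap to other genes is not settled, and with its dim value at the floor Cd83 stood at 3.43, under Lad1. Nearest to Cd80 were Fasl, the death ligand of T cells, at 2.11, and Ms4a4c at 2.12. Nearest to H2-Ab1 were Tgm1 at -1.93, below the floor on the IL-27-labelled array, and Gpm6b at -1.96. With 1 array per group, this likeness is a similar fold on a single pair of arrays.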

How the data were processed

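The deposited file holds 22716 probe sets, each with an intensity on both arrays, on a linear scale. The authors made these intensities with RMA, per the submitters' processing notes; its version is not given in the sources used here. Quantile normalization in RMA hides a change in total RNA per cell, and the table has no detection calls. The number of arrays limits the precision. Median intensities were 32.4 on the IL-27-labelled array and 33.3 on the untreated-labelled array.

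The platform annotation paired 18003 probe sets with 1 gene symbol, 287 with several and 4426 with none listed, and 17977 had an Entrez identifier in the RefSeq table of GRCm38.p6. The log2 of each intensity was taken with no pseudocount added. A gene was read by its probe set of highest mean log2 level. The floor was the 95th percentile of 44 measured genes, of 51 listed, that belong to other tissues. Where a value lay below it, the fold is a lower bound against the floor, and a gene below it on both arrays has none. Named genes were all 9 members, up to 4 genes per list with the largest absolute difference together with any list gene at least 2-fold apart, and the 2 nearest genes to each of 3 members. Cd4, Cd8a, Cd40, Cd40lg, Ctla4, Cd274, H2-Ea, the H2-DM and H2-O chains, Psmb8, the NF-Y and RFX subunits, Ifngr1 and the markers below the floor were named outside that rule, after their values were seen. The members, lists and rules were chosen with earlier results of these data known. Python 3.11.15, pandas 2.3.3, numpy 2.4.6 and statsmodels 0.14.6 were used.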

Additional observations from a re-analysis of the deposited data

How the results depend on the processing

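Alternatives were median subtraction, loess, a pseudocount of 16, dim values raised to the floor, no filter, a floor at the 99th percentile, the mean of probe sets, leaving out probe sets ending in _x_at or _s_at, a 1.5-fold threshold and, added after seeing the data, a floor without Tg and Mylpf, other-tissue genes that were bright on both arrays. A difference counted as moved past 1.5-fold. No call of a member changed sign under any of them, and outside the 99th percentile floor 4 members were called higher and 1 lower, or 5 higher at 1.5-fold, which adds H2-Eb1. Cd83 differed by 3.43 with its dim value set at the floor and by 3.38 with the pseudocount, and the third Cd80 probe set, just under the floor, by 0 with dim values raised. The 99th percentile, which falls between Mylpf and Tg, gave a floor of 647, which left 0 members called higher and 0 lower, 16 genes called higher and 53 lower, 0 higher genes in the CD40 and TNF-family list, 1 higher among genes IL-27 is known to restrain, 0 higher and 2 lower among those it is known to raise, and 1 lower in the class II transcription list. At 1.5-fold, 346 genes were higher and 479 lower. The median of the class II transcription list turned to 0.008 after median subtraction and that of the dendritic cell list to 0.02 with the added floor. No paired analysis was possible because each group has 1 array. Cd83, below the floor on the untreated-labelled array, has only a bound for its fold.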
